A study of Mus musculus with 12 samples.

Results

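Tubulins, cytoplasmic actins and the simple-epithelium keratins build the 3 filament systems of a cell. Their transcripts were followed here in mouse livers injured with paracetamol (acetaminophen, APAP). The 10 genes were taken from a list of names, made when earlier results of these data were known: the beta tubulins Tubb2a, Tubb2b, Tubb6 and Tubb4b, the alpha tubulins Tuba1c and Tuba8, the keratins Krt8 and Krt18, and the actins Actb and Actg1. All 10 were among the 24187 genes counted, and all 10 passed the filter on low counts that left 22581 genes for testing.

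Bulk RNA sequencing measured the livers of 12 C57BL/6J mice by the labels, 10 to 12 weeks old by the methods, which also name the substrain C57BL6/JOlaHsd. The 3 control mice were untreated, and the other 9 received 350 mg/kg APAP by the labels. The severe model, with which these livers were shown, used a higher dose. Of the 9 mice, 5 were then given phosphate-buffered saline (vehicle) and 4 were given hAAMs, human alternatively activated macrophages grown from donor monocytes. Cells or vehicle were injected into the tail vein 16 h after APAP, and livers were taken 36 h after APAP by the methods or 32 h by the legend of the severe model. The sex of the sequenced mice was not given in the sources used here. APAP is turned into a reactive product by hepatocytes, so the injury starts in these cells, while a piece of liver also holds stellate, endothelial, bile duct and immune cells. In bulk tissue, fewer cells of a type and less RNA per cell cannot be told apart.

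Total counts per liver ranged from 47391650 to 74056505. The 10 genes together took 0.146 to 0.169% of the counts in control livers, 0.283 to 0.479% with vehicle and 0.194 to 0.487% with hAAMs. Hepatocyte markers were high in every group, with a sum over 6 genes of at least 56942 CPM (read counts relative to the size of the library, scaled with TMM factors). Before averaging, pairs of livers were compared with counting noise. hAAM replicate 4 and vehicle replicate 3 were spread by 1.19 times the counting noise, whereas in the other 35 pairs of APAP livers the spread was 2.52 to 5.55 times as large as that noise. Over the 10 genes, hAAM replicate 4 differed from vehicle replicate 3 by between −6.97% (Tubb6) and 1.53% (Tubb2a). These 2 libraries carry different group labels, so each stayed in its group, and results are also given without both.

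Microtubules are hollow tubes of alpha-beta tubulin pairs, and each vertebrate has several genes, called isotypes, for either subunit. Cells adjust the stability of tubulin transcripts to the pool of free subunits. Actin filaments are built from beta-actin and gamma-actin, the products of Actb and Actg1, in all non-muscle cells, and serum response factor (SRF) with its partners of the MRTF family drives many actin genes through the CArG box. Hepatocytes hold one keratin pair, keratin 8 (type II) and keratin 18 (type I). The pair is a known stress marker of liver, and its filaments collect in Mallory-Denk bodies.

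Promoter sequence was read from RefSeq (GRCm38.p6) for the 7 of 10 genes with an entry; Actb, Tubb2b and Tubb6 had none in the table used. In the 250 bases before the start, 5 motifs were searched on both strands: the CArG box, the box CCAAT, the TATA box TATAAA, the cyclic AMP response element TGACGTCA, and the AP-1 site TGANTCA. The promoters below are shown because their genes took different courses after injury: Actg1 rose, while Tubb2a and Tubb4b did not pass the test. Each line reads 5′ to 3′ along the gene's strand, and capitals mark the matches.
Actg1, chr11:120348543-120348622, minus strand: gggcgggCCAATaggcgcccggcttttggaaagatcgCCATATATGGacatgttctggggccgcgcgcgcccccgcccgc
Tubb2a, chr13:34078009-34078088, minus strand: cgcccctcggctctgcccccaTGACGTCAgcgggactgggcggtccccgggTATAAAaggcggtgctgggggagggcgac
Tubb4b, chr2:25224703-25224952, minus strand: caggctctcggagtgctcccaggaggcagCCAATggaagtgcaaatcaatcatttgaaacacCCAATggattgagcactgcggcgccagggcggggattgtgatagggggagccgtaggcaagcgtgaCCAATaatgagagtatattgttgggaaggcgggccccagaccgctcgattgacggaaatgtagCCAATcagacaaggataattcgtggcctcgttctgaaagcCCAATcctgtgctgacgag

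Actg1 held the CArG box CCATATATGG from −90 to −81 relative to its RefSeq start, which lies inside the gene as GENCODE gives it, and 1.47% of the 32851 promoters held a CArG box in the same window. Tubb2a held TGACGTCA, bound by CREB and ATF factors, from −59 to −52 (1.55% of promoters) and TATAAA from −29 to −24 (12.4%). Tubb4b held CCAAT, the box bound by NF-Y, 5 times, at −221, −188, −122, −59 and −19. CCAAT was in 33.8% of promoters, and 0.213% held it 5 times or more. Actg1 and Tuba1c each held it once. Krt8, Krt18 and Tuba8 held none of the 5 motifs, and no gene with an entry held TGANTCA, which was in 6.75% of promoters.

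To compare levels between genes, CPM were divided by the kilobases of exon. In control livers, Actb led at 369 ± 9.08 (SD, n = 3) CPM per kilobase, followed by Krt18 at 124 ± 20.2, and Krt8 at 83.3 ± 4.08. Krt8, Tubb2a (72.6 ± 17.5) and Tuba1c (56.1 ± 10.997) overlapped in neighbouring pairs. Actg1 (44.3 ± 2.28) and Tubb4b (39.8 ± 5.51) overlapped as well. Tubb2b (15.3 ± 3.39), Tubb6 (3.59 ± 0.758) and Tuba8 (0.856 ± 0.496) followed, with no overlap between neighbours. In vehicle-treated livers the order changed in its middle. Actb stayed first at 718 ± 116 (SD, n = 5) CPM per kilobase, Krt18 (350 ± 80.03) and Krt8 (327 ± 70.3) overlapped, and Actg1 at 117 ± 15.5 stood next, above every tubulin. Tubb6, at 12.2 ± 2.80, overlapped Tubb2b at 13.0 ± 4.71, and Tuba8 was last at 0.226 ± 0.0948. The order of the means in hAAM-treated livers was that of the vehicle-treated livers.

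The first question was which of these genes differed between vehicle-treated and control livers, that is, after APAP and an injection of vehicle. The methods also describe a fast before APAP, so the comparison does not isolate APAP. Both keratins, both actins and 1 of 4 beta tubulins, Tubb6, rose, and the alpha tubulin Tuba8 fell. Thus edgeR called 6 of 10 genes at an FDR under 0.05 (5 higher, 1 lower), against 29.8% of all genes tested (15.0% higher, 14.8% lower). In these 6 the groups did not overlap, as in 34.8% of all genes. The median log2 fold change of the 10 genes was 0.70, and that of all genes 0.01. Each gene's values by liver are plotted by group, and its changes in the 3 comparisons are plotted together.

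**Figure D1:**
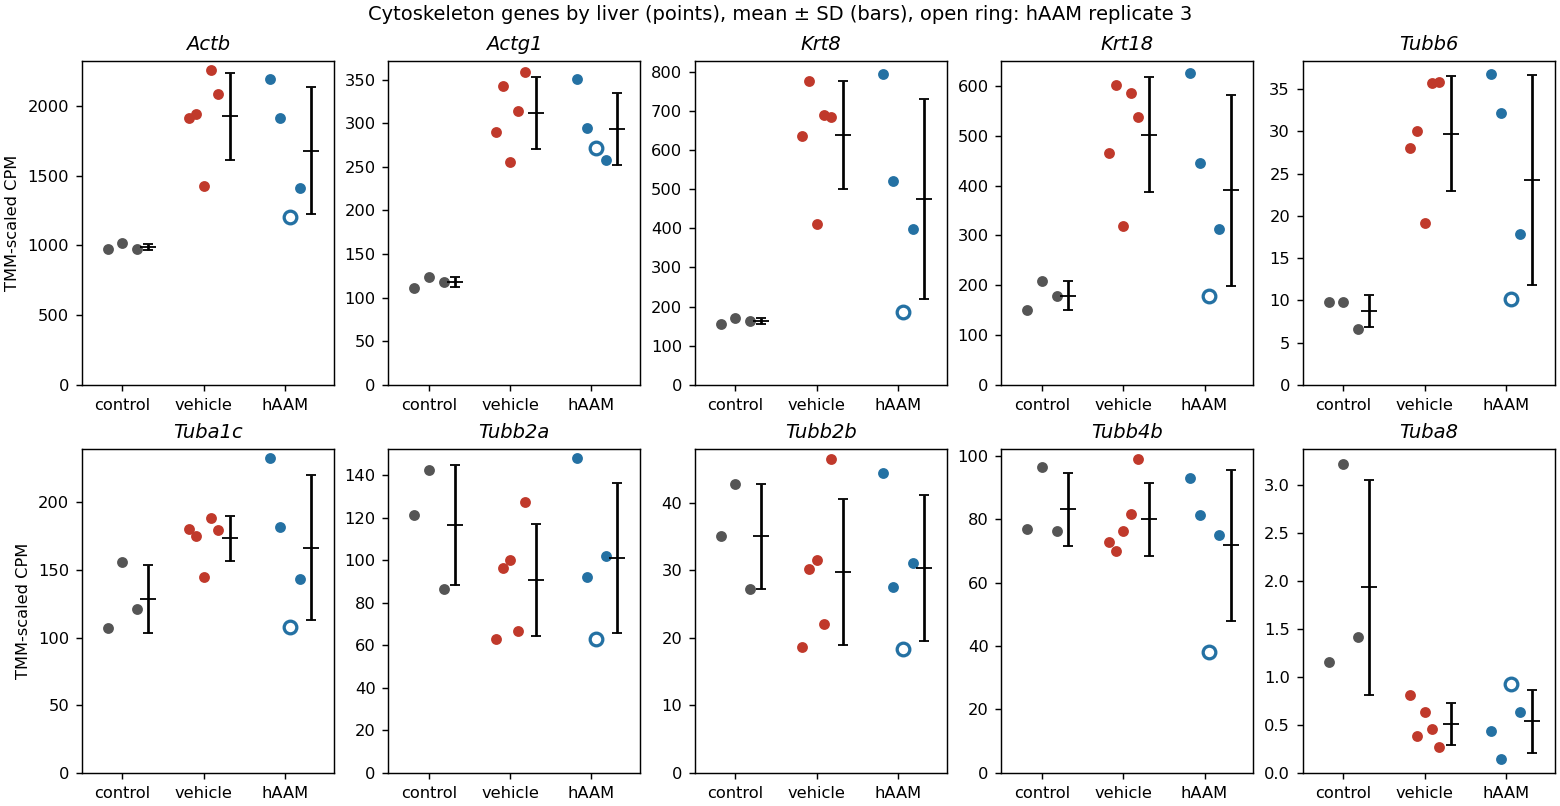
TMM-scaled CPM (y axis, linear from 0, one panel per gene) of the 10 cytoskeleton genes in control (n = 3), vehicle-treated (n = 5) and hAAM-treated (n = 4) livers. Points are livers, bars mean ± SD, and the open ring is hAAM replicate 3, which lies at 185 CPM for Krt8, close to the control livers, and at 271 CPM for Actg1, far above them.

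**Figure D2:**
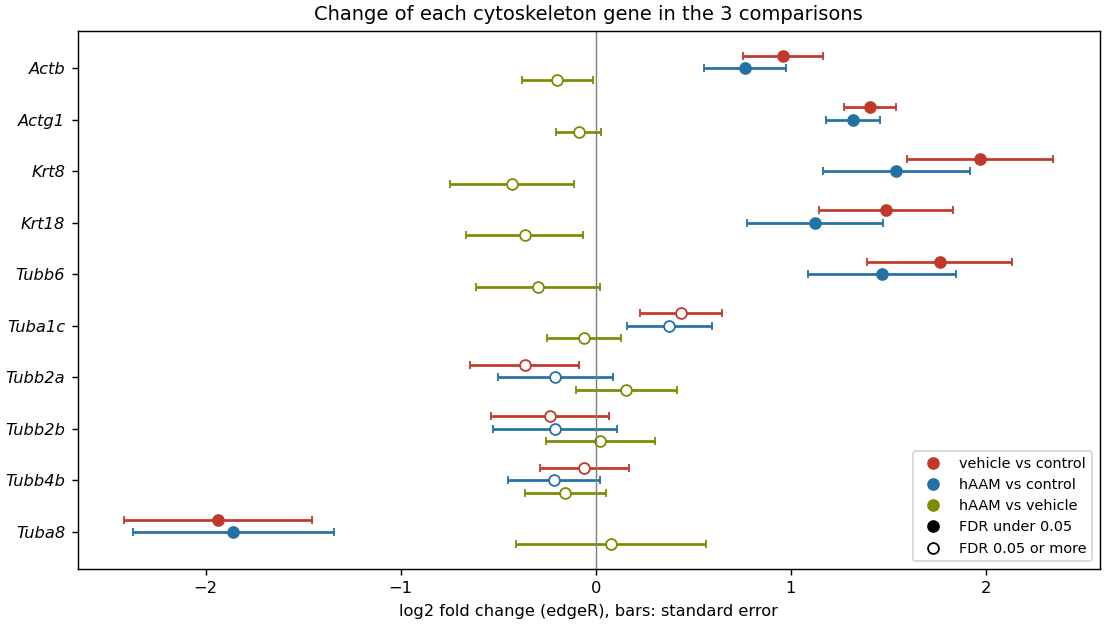
log2 fold change (x axis) with its standard error from edgeR for each gene in 3 comparisons, filled where the FDR was under 0.05. Krt8, Krt18, Actb, Actg1 and Tubb6 lie above 0 and Tuba8 below 0 in both comparisons with control, and no point of the comparison of hAAM with vehicle is filled.

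Krt8 (ENSMUSG00000049382, chr15:101996698-102004482 of GRCm38, minus strand) encodes keratin 8. Its CPM were 154.9, 170.9 and 163.2 in control replicates 1 to 3, and 636.2, 777.2, 410.8, 688.8 and 684.4 in vehicle replicates 1 to 5. All 5 vehicle-treated livers lay above all control livers, and vehicle replicate 3 was the lowest of them. The log2 fold change was 1.97 (SE 0.374, FDR 0.00287). Krt18 (ENSMUSG00000023043), its partner, lies 23.7 kb further on at chr15:102028180-102032027, plus strand. It had 150.1, 208.3 and 178.3 CPM in control livers and 465.4, 601.3, 319.8, 587.1 and 537.8 with vehicle. It rose by 1.49 on the log2 scale (SE 0.345, FDR 0.00772), again with vehicle replicate 3 lowest and no overlap.

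Keratins 8 and 18 pair in equal amounts in the filament, and the ratio of their transcripts differed between the groups. Krt8 per kilobase over Krt18 per kilobase was 0.677 ± 0.0778 (SD, n = 3) in control livers, 0.938 ± 0.0508 (n = 5) with vehicle and 0.872 ± 0.0828 (n = 4) with hAAMs. The lowest of the 9 APAP livers, at 0.760, was hAAM replicate 3, and the highest control liver was at 0.758, so that the ranges did not overlap. Part of the Krt8 signal is uncertain, since its pseudogene Krt8-ps had 473 to 2778 counts against 8130 to 46590 for Krt8 and may exchange reads with it.

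Actg1 (ENSMUSG00000062825, chr11:120345690-120348542, minus strand) encodes cytoplasmic gamma-actin. Control livers had 111.5, 123.6 and 117.9 CPM, and vehicle-treated livers 289.6, 342.1, 255.2, 313.9 and 358.8. The lowest vehicle-treated liver was above every control liver. Its log2 fold change of 1.41 had the smallest standard error of the 10 genes (0.135) and an FDR of 6.98e-05. Actb (ENSMUSG00000029580, chr5:142903115-142906754, minus strand) encodes beta-actin, often used as a reference gene. It had 972.7, 1016 and 974.5 CPM in control livers and 1912, 1939, 1427, 2256 and 2089 with vehicle, also with no overlap. The log2 fold change was 0.96 (SE 0.205, FDR 0.00511).

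The share of gamma-actin among the cytoplasmic actin transcripts therefore differed. Actg1 over Actb, per kilobase, was 0.120 ± 0.00390 (SD, n = 3) in control livers, 0.165 ± 0.0175 (n = 5) with vehicle and 0.182 ± 0.0323 (n = 4) with hAAMs. Every APAP liver was above every control liver. With both genes and the pseudogene Actg-ps1 summed, the pool rose from 1105 ± 28.6 (SD, n = 3) to 2238 ± 340 CPM (n = 5) with vehicle (log2 fold change 1.02, FDR 0.00296).

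**Figure D3:**
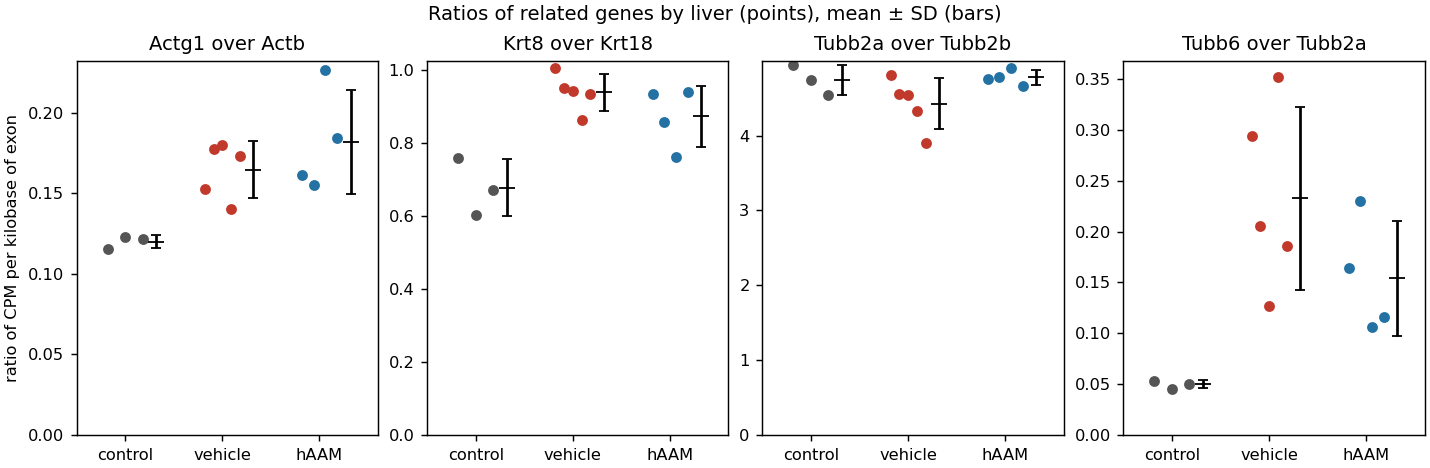
Ratios of 2 related genes in CPM per kilobase of exon (y axis, from 0) by liver, with mean ± SD. Actg1 over Actb and Krt8 over Krt18 lie higher in all 9 APAP livers than in the 3 control livers, Tubb6 over Tubb2a does so as well, and Tubb2a over Tubb2b covers 3.90 to 4.94 with overlapping groups.

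Among the tubulins, Tubb6 (ENSMUSG00000001473, chr18:67390717-67402749, plus strand), a beta isotype of many tissues, rose from a low level. Its CPM were 9.834, 9.799 and 6.619 in control livers and 27.98, 29.99, 19.20, 35.66 and 35.83 with vehicle. The groups did not overlap, with a log2 fold change of 1.76 (SE 0.374, FDR 0.00504). Tuba8 (ENSMUSG00000030137, chr6:121210696-121226854, plus strand), a divergent alpha tubulin, was the only one of the 10 genes called lower. It had 61, 205 and 72 counts (1.163, 3.224 and 1.423 CPM) in control livers and 47, 22, 33, 31 and 18 counts (0.8087, 0.383, 0.6389, 0.4583 and 0.2663 CPM) with vehicle. The estimate was −1.93 on the log2 scale (SE 0.481, FDR 0.0109), and control replicate 2 was far above the other control livers. Without control replicate 2, the log2 fold change was −1.35 and the FDR 0.0737. It was also the least counted of the 10, so its values carry the most counting error.

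Tuba1c (ENSMUSG00000043091, chr15:99029891-99038110, plus strand), a broadly used alpha tubulin, had 107.2, 156.1 and 121.4 CPM in control livers and 179.9, 175.1, 145.0, 188.4 and 179.2 with vehicle. Of 5 vehicle-treated livers, 4 were above all control livers and replicate 3 was not. The difference of 0.44 (SE 0.210) had an FDR of 0.136. The FDR was 0.0238 with scaling by library size only and 0.0346 when the model held these 2 groups only.

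The other 3 beta tubulins did not pass the test and had negative estimates. Tubb2a (ENSMUSG00000058672, chr13:34074274-34078007, minus strand) had 121.5, 142.4 and 86.56 CPM in control livers and 62.89, 96.63, 100.4, 66.85 and 127.4 with vehicle. The groups overlapped, and its log2 fold change of −0.36 (SE 0.279, FDR 0.349) had an interval of 2 SE from −0.92 to 0.19. Tubb2b (ENSMUSG00000045136, chr13:34126748-34130466, minus strand), its neighbour 48.7 kb away, had 35.05, 42.73 and 27.17 CPM against 18.63, 30.24, 31.52, 22.01 and 46.49. The value was −0.23 (SE 0.303, FDR 0.595), with an interval of −0.84 to 0.37. Tubb4b (ENSMUSG00000036752, chr2:25222160-25224702, minus strand), which is rich in ciliated and dividing cells, had 76.81, 96.37 and 76.11 CPM against 72.61, 69.98, 76.31, 81.49 and 98.96. Its value of −0.06 (SE 0.226, FDR 0.872, interval −0.51 to 0.39) became 0.29 under scaling by library size only, where the median of all genes was 0.36, and that of Tubb2b became 0.11.

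Beta tubulin messages are alike in sequence, so reads may have moved between isotypes and the pseudogenes Tubb4b-ps1 (298 to 1016 counts), Tubb4b-ps2 (17 to 47) and Tubb2a-ps2 (32 to 107). Summed over the 8 beta tubulin genes and these 3 pseudogenes, the level was 337 ± 65.9 CPM (SD, n = 3) in control livers and 394 ± 60.9 (n = 5) with vehicle (log2 fold change 0.22, FDR 0.524). The 5 alpha tubulins summed to 322 ± 52.1 CPM and 408 ± 28.8 (0.34, FDR 0.206). Neither sum passed the test. Tubb6, at 29.7 CPM with vehicle, was a small part of the beta tubulin sum. The ratios that follow compare 2 isotypes each, restate the values of the single genes and were not tested. Tubb6 over Tubb2a, per kilobase, was 0.0498 ± 0.00404 (SD, n = 3) in control livers and 0.233 ± 0.0899 (n = 5) with vehicle, with no overlap. Tubb2a over Tubb2b was 4.74 ± 0.201 and 4.43 ± 0.338, with overlapping ranges.

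The second comparison set the 4 hAAM-treated livers against the same 3 control livers, so that it shares its controls with the first. The genes past the threshold were Krt8, Krt18, Actb, Actg1 and Tubb6, which were higher, and Tuba8, which was lower. This is 6 of 10, against 20.7% of all genes tested (10.7% higher, 9.96% lower). In 5 of 10 genes the groups did not overlap, as in 28.5% of all genes, and the exception among those called was Krt18. The median of the 10 genes was 0.57 and that of all genes 0.02.

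Krt8 had 795.6, 520.2, 185.0 and 398.7 CPM in hAAM replicates 1 to 4, a log2 fold change of 1.54 against control (SE 0.377, FDR 0.0150). Krt18 had 626.4, 445.2, 178.5 and 312.1 CPM (1.13, SE 0.350, FDR 0.0398). That of replicate 3 lay inside the control range of 150.1 to 208.3, and the other 3 above it. Actg1 had 351.1, 294.6, 271.0 and 257.9 CPM, all at least 2.19-fold the control mean of 118, with a log2 fold change of 1.32 (SE 0.138, FDR 0.000207). Actb had 2192, 1911, 1205 and 1410 CPM, all above control (0.77, SE 0.210, FDR 0.0247). Tubb6 had 36.80, 32.11, 10.11 and 17.87 CPM (1.47, SE 0.380, FDR 0.0193), and that of replicate 3 exceeded the highest control liver, at 9.834, by little. Tuba8 had 23, 8, 48 and 34 counts, all below control in CPM (−1.86, SE 0.516, FDR 0.0258).

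These calls rested on few livers, apart from that of Actg1, which was made in all 12 fits that left out 1 liver (FDR 0.000185 to 0.00194). Krt8 was called in 10 of 12 and lost the call without control replicate 1 (FDR 0.0506) or 3 (0.0538). Tubb6 was called in 9, and its FDR was 0.0526 without hAAM replicate 1, 0.0504 without hAAM replicate 2 and 0.0783 without control replicate 3. Tuba8 was also called in 9, with 0.0689 and 0.0514 without hAAM replicates 1 and 2, and 0.125 without control replicate 2, where its log2 fold change was −1.27. Actb was called in 7. Its FDR was 0.0676, 0.0581 and 0.0764 without control replicates 1, 2 and 3, and 0.0651 and 0.0613 without hAAM replicates 1 and 2. Krt18 was called in 5, with FDRs from 0.0505 to 0.122 in the 7 others, which left out any one of control replicates 1 to 3, hAAM replicates 1 and 2 or vehicle replicates 1 and 2. In a model of these 2 groups only, Krt18 (FDR 0.0851), Actb (0.0575), Tubb6 (0.0552) and Tuba8 (0.0635) were not called. Without hAAM replicate 3, all 6 were called, with log2 fold changes of 1.81 for Krt8, 1.37 for Krt18 and 1.72 for Tubb6. In the comparison of vehicle with control, Krt8, Krt18, Actb, Actg1 and Tubb6 were called in all 12 such fits.

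Of the genes that did not pass the test, Tuba1c had 232.8, 182.1, 107.7 and 143.5 CPM with hAAMs (0.38, SE 0.218, FDR 0.240). Tubb4b had 92.81, 81.30, 37.96 and 74.90 CPM (−0.21, SE 0.236, FDR 0.558), and that of replicate 3 was the lowest of all 12 livers. Tubb2a had 148.1, 92.24, 62.94 and 101.9 CPM (−0.21, SE 0.293, FDR 0.655), and Tubb2b 44.34, 27.44, 18.28 and 31.12 CPM (−0.21, SE 0.318, FDR 0.680). The estimates of Tubb2a, Tubb2b and Tubb4b were each 0.11 with scaling by library size only. Summed, beta tubulins were at 383 ± 140 CPM (SD, n = 4; FDR 0.650 against control) and alpha tubulins at 396 ± 119 (FDR 0.322), while Actb, Actg1 and Actg-ps1 together were at 1976 ± 488 (log2 fold change 0.84, FDR 0.0135).

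The third comparison asked whether hAAMs changed these genes after injury. None of the 10 genes passed the threshold between hAAM-treated and vehicle-treated livers, where 0.00% of all genes did, in edgeR's test. None had an unadjusted p under 0.05, against 5.02% of all genes, and DESeq2 called none of the 10 (0.00443% of all genes). FDRs were 0.973 or higher. The lowest unadjusted p was that of Krt8, at 0.202, with a log2 fold change of −0.43 (SE 0.318). Its interval of 2 SE, from −1.07 to 0.21, covered no difference as well as a large fall. That of Krt18 (−0.36) ran from −0.96 to 0.24, that of Tubb6 (−0.30) from −0.93 to 0.34, and that of Actb (−0.20) from −0.56 to 0.17. The narrowest was that of Actg1 (−0.09), from −0.32 to 0.15, and the widest that of Tuba8 (0.08), from −0.90 to 1.05. In each of the 10 genes the groups overlapped, while 1.40% of all genes had groups that did not.

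The spread within the hAAM group was wide, and 1 liver, hAAM replicate 3, had a profile of its own. Of the 9 APAP livers it was the lowest in 7 of 10 genes and among the 2 lowest in 8, whereas it was the highest in Tuba8. Relative to the control mean, its level was 1.13-fold for Krt8, 0.998-fold for Krt18, 1.16-fold for Tubb6 and 1.22-fold for Actb. For Actg1 it was 2.30-fold, within the range of the other APAP livers, and for Tubb4b it was 0.457-fold. Its ratio of Actg1 to Actb per kilobase, 0.227, was the highest of all 12 livers. Its ratio of Krt8 to Actb, 0.210, was below the control range of 0.218 to 0.230, while the vehicle-treated livers had 0.394 to 0.548. hAAM replicate 1 was the highest of the 9 APAP livers in 5 genes, so that hAAM livers stood at both ends. hAAM replicate 4 and vehicle replicate 3, the libraries that nearly coincided, were between these livers for Krt8, at 2.45-fold and 2.52-fold of the control mean. Without both of them, 6 genes were called with vehicle against control (30.0% of all genes), 6 with hAAMs against control (19.6%), and 0 between hAAM and vehicle (0.00%, FDR 0.865 or higher).

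**Figure D4:**
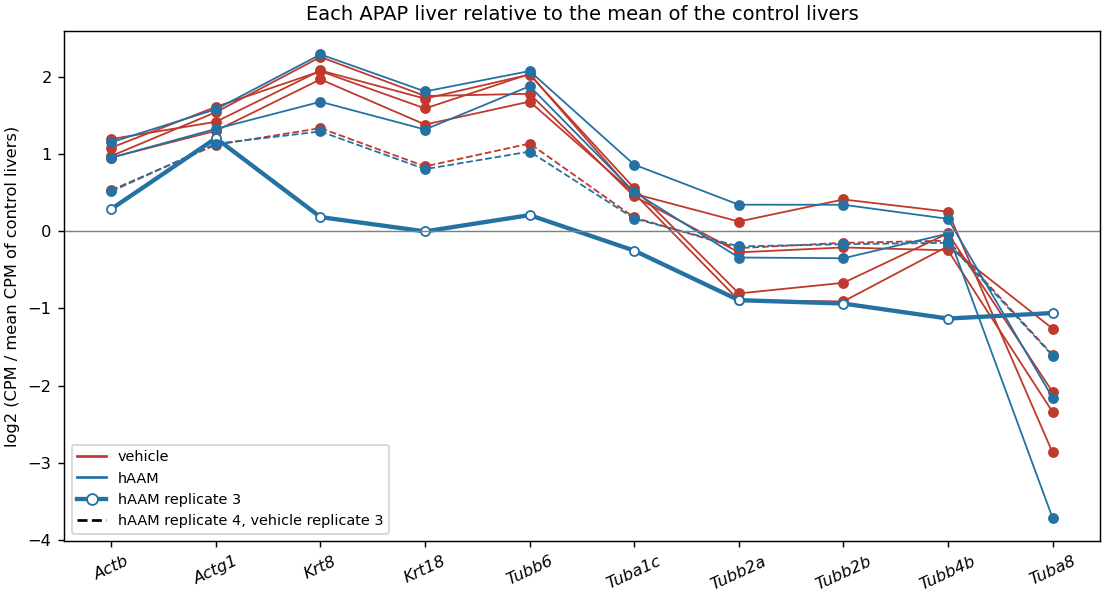
log2 ratio of each APAP liver's CPM to the mean of the 3 control livers (y axis) for the 10 genes (x axis), one line per liver. hAAM replicate 3 (thick line) falls from 2.30-fold for Actg1 to 1.13-fold for Krt8, and the lines of hAAM replicate 4 and vehicle replicate 3 (dashed) nearly coincide.

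For Tubb2a, Actb and Krt8, the genes closest in pattern were found by the root mean square difference of centred log2 CPM over the 12 livers, among 11171 genes. This is a description of these livers only. Closest to Tubb2a was its paralog Tubb2b (0.0894), at a distance well under that of the next, Dapk2 (0.252) and Pla2g6 (0.273), and these paralogs may share reads. Closest to Actb were Itgav (0.0687), the integrin alpha V subunit, Gipc1 (0.0736), a PDZ-domain adaptor, and Cfl1 (0.0736), cofilin 1, which severs actin filaments. Closest to Krt8 were Krt8-ps (0.0688), which may share its reads, Src (0.192), a tyrosine kinase of cell adhesions, and Krt18 (0.219), with Tubb6 next at 0.221. Actg1 was 818th in closeness to Actb, and Tubb6 10825th in closeness to Tubb2a.

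Other genes of the filament systems were taken from 11 lists of 157 genes, of which 147 were tested. With vehicle, 60 were higher and 7 lower than in control, beside 15.0% and 14.8% of all genes. This split depended on the scaling, since with library size only 104 were higher and 1 lower, and over all genes 8637 were higher and 1110 lower (3380 and 3339 as reported). The median log2 fold change was 0.37 against 0.01 over all genes. With hAAMs, 47 were higher and 5 lower, beside 10.7% and 9.96%, with a median of 0.32 against 0.02. With library size only, 89 were higher and 1 lower. The total of 52 fell to 32, 28 and 21 without control replicates 1, 2 and 3, and to 27 and 28 without hAAM replicates 1 and 2. Between hAAM and vehicle 0 passed, 6 had an unadjusted p under 0.05, and the median was −0.04 against 0.00.

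Of the remaining tubulins, Tuba1b rose with vehicle (log2 fold change 0.75, FDR 0.0453) and Tubb5, a beta tubulin of dividing cells, rose from 78.7 ± 16.7 CPM (SD, n = 3) to 148 ± 33.5 (n = 5; 0.91, FDR 0.0383). With hAAMs, neither Tubb5 (0.83, FDR 0.0756) nor Tuba1b (0.66, FDR 0.102) was called. Tubb5 ran from 79.7 CPM in hAAM replicate 3 to 207 in replicate 1, and Tuba1b from 44.6 to 122 in the same livers. Tubb3, the beta tubulin known from neurons, rose from 6 to 8 counts in control livers to 18 to 144 with vehicle (3.13, FDR 0.0229). With hAAMs, it had 8 to 122 counts (3.25, FDR 0.0293), the 8 being those of replicate 3. Tuba1a (0.68, FDR 0.0748), Tuba4a (−0.22, FDR 0.231), Tubb1 (1.70, FDR 0.0900) and Tubb4a (0.49, FDR 0.348) did not pass with vehicle. Of the tubulins outside the microtubule wall, Tubg1, the gamma tubulin that nucleates microtubules, fell with vehicle (−0.37, FDR 0.00564) and with hAAMs (−0.39, FDR 0.00822). Tube1 rose in both (0.86, FDR 0.00918, and 0.80, FDR 0.0218), while Tubg2 (0.04, FDR 0.881) and Tubd1 (−0.30, FDR 0.164) did not pass with vehicle.

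Of 4 other actins tested, 3 rose with vehicle. Acta2, the smooth muscle actin of activated stellate cells, went from 4.77 ± 2.23 CPM (SD, n = 3) to 34.1 ± 11.9 (n = 5; 2.84, FDR 0.00483), and to 37.0 ± 25.8 (n = 4; 2.95, FDR 0.00732) with hAAMs. Actg2 rose with vehicle (1.74, FDR 0.0273) and had an FDR of 0.0878 with hAAMs. Actc1 was called with 2 counts in each control liver and 4 to 11 in the APAP livers, and Acta1 was not called (0.65, FDR 0.362). Of the 13 other keratins listed, 7 were tested, and Krt80 rose (1.77, FDR 0.00967). Krt5, which had no counts in the control livers, is described at the end. The bile duct keratins Krt7 (0.80, FDR 0.222) and Krt19 (0.34, FDR 0.578) did not pass with vehicle.

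Counts per list are read beside the 15.0% of all genes that were higher and the 14.8% that were lower with vehicle. Where a leading gene is named, it had the largest change among called genes whose log2 CPM averaged 2 or more over the livers. Of 27 genes of actin filament turnover, 15 rose and 0 fell with vehicle, led by Capg, a filament-capping protein (2.89, FDR 0.00135). With hAAMs 11 rose, where 10.7% of all genes were higher. Of 22 crosslinkers, membrane linkers and motors, 12 rose, led by filamin A, Flna (1.95, FDR 0.00244), and 1 fell, radixin, Rdx (−0.47, FDR 0.00798). Of 13 genes of SRF, MRTF and their targets, 7 rose, led by Tagln2 (2.14, FDR 0.00344), and 1 fell, Mrtfa (−0.38, FDR 0.0138), whose product is a partner of SRF. Below that level, Fhl2 (2.53, FDR 0.00102) and Fhl3 (2.42, FDR 0.00656) rose. Of 16 intermediate filament partners, 7 rose, led by vimentin, Vim (2.42, FDR 0.00401). Of 25 microtubule regulators, 7 rose, led by Mapre2 (0.73, FDR 0.00153), and 4 fell, led by Atat1, the alpha tubulin acetyltransferase (−0.89, FDR 0.00292), and 4 of 25 is close to the share of all genes that fell. Below that level, Map2 rose by 1.15 (FDR 0.0114). Of 22 genes that fold tubulin and actin, 3 rose, close to the share of all genes that rose, led by the tubulin cofactor Tbcd (0.45, FDR 0.00484). None fell, and 19 did not pass. Their median of 0.03 was near the 0.01 of all genes.

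**Figure D5:**
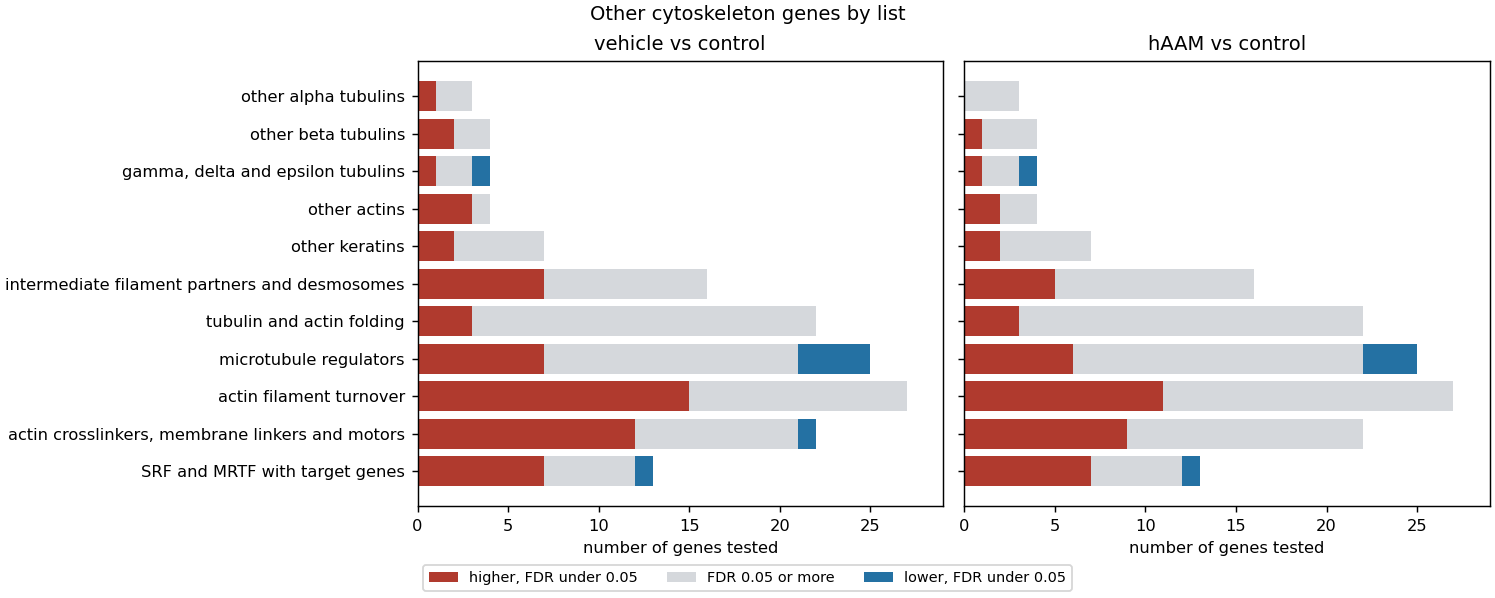
Number of tested genes (x axis) in each of 11 lists of other cytoskeleton genes that were higher, lower or not past an FDR of 0.05, with vehicle (left) and hAAMs (right) against control. Actin filament turnover holds 15 higher and 0 lower genes with vehicle, and tubulin and actin folding 3 higher genes of 22.

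Counts of markers are read beside the shares of all genes, which were 15.0% higher and 14.8% lower with vehicle, and 10.7% and 9.96% with hAAMs. With so few genes per list, a count of 1 or 2 is not read as standing out. Of 6 hepatocyte markers 1, Hnf4a, was lower with vehicle (−0.38, FDR 0.0276), close to the share of all genes, and 0 were called with hAAMs. Markers of some other cell types also differed. Of 6 stellate cell and myofibroblast markers, 4 were higher with vehicle and 4 with hAAMs, and their sum was 115 to 147 CPM in control livers, 227 to 529 with vehicle and 213 to 609 with hAAMs, where replicate 3 was lowest. Of 6 endothelial markers 3 were higher with vehicle and 2 with hAAMs (295 to 323, 337 to 439 and 313 to 430 CPM), and of 6 macrophage and monocyte markers 3 in both (207 to 243, 257 to 430 and 257 to 461 CPM). Of 6 bile duct cell (cholangiocyte) markers 0 were called, with 40.6 to 65.8, 64.5 to 301 and 64.3 to 231 CPM. Spp1 made up most of the higher sums, with 253 CPM in vehicle replicate 4 and 191 and 195 in hAAM replicates 1 and 2. The defining marker Epcam had 35 to 57 counts over the 12 livers. Of 10 mitotic genes 0 were called, at 23.3 to 26.8, 19.8 to 78.4 and 27.5 to 107 CPM. Of 5 neutrophil, 5 B cell and 5 T and NK cell markers, 0 were called in each list. Their sums were at most 28.1, 2.77 and 1.60 CPM in control livers, 44.3, 6.79 and 1.78 with vehicle and 40.6, 4.55 and 2.67 with hAAMs. Of 5 red cell genes, 4 were higher and 1 lower with vehicle, and 0 higher and 1 lower with hAAMs (135 to 240, 220 to 2025 and 226 to 733 CPM). No marker list was at 0 in any group, and hAAM replicate 3 had the highest hepatocyte sum of all livers (98162 CPM). Among hAAM livers it also had the highest red cell, B cell and T and NK cell sums and the lowest bile duct, stellate, endothelial and mitotic sums. Several of these ranks were near ties with hAAM replicate 4. Its sums were 94935 CPM for hepatocyte markers, 64.8 against 64.3 in replicate 3 for bile duct, 221 against 213 for stellate and 328 against 313 for endothelial markers. The red cell sums, 226 in replicate 4 and 733 in replicate 3, were far apart. The part of these cells in the changes of the 10 genes was not tested.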

How the data were processed

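The authors extracted RNA from frozen liver, removed ribosomal RNA, and made strand-marking libraries. Per the labels and methods, paired reads were trimmed with cutadapt 4.6, aligned to GRCm38 with STAR 2.7.1a and counted per Ensembl gene with summarizeOverlaps, in a mode not given in the sources used here. The deposited values are raw counts, not normalized, for 24187 genes with at least 15 counts over 12 livers. Symbols, coordinates and exon lengths came from GENCODE (GRCm38), which named 24128 of them. The protocol names 14 libraries, of which 12 are analysed here.

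In R 4.3.3, genes were filtered with filterByExpr by group, scaled with TMM and tested with edgeR 4.0.16 (quasi-likelihood, not robust, all 12 livers in one model of group means, two-sided p, Benjamini-Hochberg FDR over 22581 genes, threshold 0.05). Standard errors are the log2 fold change divided by the root of F. CPM use TMM-scaled libraries, and the pattern distances use log2 CPM with a prior count of 2. At 47391650 counts or more per liver, counting error matters mainly for genes such as Tuba8. Replicates are separate livers by their labels. The alternatives were DESeq2 1.42.0, its size factors, library size only, other filters, models of 2 groups, a replicate block, summed families, and leaving out livers. Genes named from lists were all other tubulins and actins, the largest rise and fall per list with vehicle (FDR under 0.05, mean log2 CPM of at least 2), and the 3 closest in pattern to Tubb2a, Actb and Krt8. Krt5, Krt7, Krt19, Krt80, Map2, Fhl2 and Fhl3 were named after their values were seen. The genes and lists were chosen with earlier results of these data known.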

Additional observations from a re-analysis of the deposited data

How the results depend on the processing

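Of the alternatives to the log2 fold changes of the 10 genes, 558 kept their direction and side of the threshold, 31 were weaker, 2 stronger and 30 reversed in sign. None of the reversed values was past the threshold. The number of the 10 genes called with hAAMs against control was 2 with a model of these 2 groups, 3 with the replicate block, and 2 to 6 when 1 liver was left out. With vehicle it was 7 with library size only (where 43.2% of all genes were called) and with 2 groups, 5 with the block, and 5 to 6 when 1 liver was left out. Of the other cytoskeleton genes, 105 were called with vehicle under library size only, 104 higher and 1 lower (67 as reported). With hAAMs, 90 were called under library size only, 28 with 2 groups, 32 with the block and 21 to 67 with 1 liver left out (52 as reported). Over all genes, the block left 4253 with vehicle, and with hAAMs 2959. Library size only gave 9747 with vehicle and 7340 with hAAMs, and a model of 2 groups 6958 and 2729. Leaving out 1 liver gave 4633 to 7197 with vehicle (6719 as reported) and 2419 to 5456 with hAAMs (4666). Between hAAM and vehicle, DESeq2 called 1 gene, and edgeR 0 to 1 with 1 liver left out (1 without vehicle replicate 3).

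Replicate numbers recur across the groups. Over all 10 same-numbered pairs, the correlations of deviations ran from −0.458 to 0.385. Only 3 of them were above 0.1, so the numbers were not taken to pair the livers. With the replicate block, Tuba8 was at −0.13 between hAAM and vehicle, and Tuba8 was not called with vehicle (FDR 0.0747). With hAAMs, Krt18 (0.0869), Actb (0.0538) and Tuba8 (0.0810) were not called with the block.

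Reversed values under library size only were 0.11 for Tubb2b and 0.29 for Tubb4b with vehicle, 0.11 for Tubb2a, Tubb2b and Tubb4b with hAAMs, and −0.01 for Tuba8 between hAAM and vehicle. Summing each family gave 0.34 in place of Tuba8 and 0.22 in place of Tubb2a, Tubb2b and Tubb4b with vehicle, 0.30 and 0.18 with hAAMs, and −0.04 for Tuba8, Tubb2a and Tubb2b between hAAM and vehicle. This sums other isotypes with them. Leaving out 1 liver moved Tubb4b from −0.14 to 0.06 with vehicle. Between hAAM and vehicle it moved Tubb2a from −0.08 to 0.33, Tubb2b from −0.22 to 0.24, Tubb4b from −0.30 to 0.06, Tuba1c from −0.26 to 0.10 and Tuba8 from −0.32 to 0.39. The cause was not tested. A minimum of 10 counts in every liver removed Tuba8, which then had no value.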

Other observations

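Among the other keratins, Krt5, the keratin of basal cells in stratified epithelium, was at 0 counts in all 3 control livers. It had 52, 26, 29, 46 and 102 counts in vehicle replicates 1 to 5 and 28, 12, 4 and 28 in hAAM replicates 1 to 4. Against a floor of 3 counts per control library, the mean level was at least 15.2-fold higher with vehicle and at least 6.26-fold higher with hAAMs. The edgeR FDRs of 0.00146 with vehicle and 0.00915 with hAAMs are not read as support. Krt5 passed the filter on low counts only through the APAP livers and was picked by its values. Its partner Krt14 was also at 0 in the control livers and had 0 to 23 counts in the APAP livers, too few to pass the filter. These genes were singled out after their values were seen.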
